A study of Homo sapiens with 4 samples.

Results

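The 10 intervals described here are those whose nearest gene was one of 9 small RNA genes. The genes were the U5 genes RNU5A-1, RNU5D-1, RNU5E-1 and RNU5F-1, the U5 pseudogene RNU5A-8P, RNU11, RNU4ATAC, the variant U1 gene RNVU1-6 and SNORD118. The intervals were taken from 391 listed in 4 chromatin immunoprecipitation sequencing (ChIP-seq) libraries by the gene name that the files give as nearest, at any distance. The genes were chosen by their presence as nearest genes in these same lists. All 10 intervals were in the ChIP list of the flag line, so that fact is a description and carries no test. Chromatin came from derivatives of UACC-812, an ERBB2-amplified breast cancer cell line, fixed with formaldehyde. One derivative overexpresses c-MYC and the other is labelled only as a flag line. The sources used here do not say how the lines were made or whether each is 1 clone. Each derivative gave 1 ChIP library, labelled with a c-MYC antibody, and 1 library titled input, which the labels nevertheless give an RNA polymerase II antibody. The titles were followed here. With 1 library per group there were no replicates, and differences between lists are differences between libraries.

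Apart from the pseudogene, these are genes of non-coding small RNAs transcribed by RNA polymerase II from short promoters of their own. The control elements, a distal and a proximal sequence element, lie upstream of the start, and the Integrator complex cuts the transcript near the end of the gene while the polymerase runs on past it. The U5 RNA holds the exons together in both the major and the minor spliceosome. The U11 RNA recognises the 5′ splice site of minor introns, and the U4atac RNA pairs with U6atac before the minor spliceosome is activated. U1 RNA recognises the 5′ splice site of major introns, and SNORD118 encodes U8, a small nucleolar RNA needed for processing of the large ribosomal subunit RNA. c-MYC is a transcription factor that binds as a pair with MAX, mostly near gene starts.

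The small RNA intervals made up 10 of the 161 intervals in the flag line ChIP list (6.21%, exact Clopper-Pearson 95% interval 3.02 to 11.1%, counting error only). This confidence interval takes no account of the choice of the genes from this same list, so nothing is read from it. The flag line input had 0 among 119 intervals. From the c-MYC line, the ChIP list had 0 among 25 and the input 0 among 86. Within the set, 9 intervals were within 1 kb of the start of the gene, 1 for each of the 9 genes, and the other was a second interval assigned to RNU11. On chromosome 1 were 6 of the 9 genes and 7 of the 10 intervals, and that chromosome held 18 of the 161 intervals in the list. In the whole flag line ChIP list 19.9% of intervals lay within 1 kb of the start of their nearest gene. None of the 10 overlapped an interval of the flag line input, against 39.1% of all 161 flag line ChIP intervals that overlapped none. The same was true of the 10 against the c-MYC line ChIP list, which 84.5% of all 161 did not overlap, and against the c-MYC line input, which 63.4% did not overlap. Over the other 3 lists together, 31.7% of all 161 overlapped nothing. These counts follow from how the genes were chosen, and nothing is read from them. The nearest input interval of the flag line was 5.51 Mb from the RNU5A-1 interval, and for the other 9 it was farther away.

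The intervals lay mostly at the ends of the genes and beyond them, with few bases over the region upstream of the start. Positions are given from the first base of the gene, in the direction of transcription, with the gene ends and strands of the deposited annotation. The summit, the base of highest pileup, was past the gene start in 10 of 10. In the whole list, 57.8% of intervals were centred past the start of their nearest gene. In the 9 intervals close to the genes the summit was 96 to 511 bp after the start, with a median of 229 bp, while the genes themselves are 114 to 164 bp long. It was past the last base of the gene in 6 of the 9 and inside the gene in the other 3. Of the 3430 bases these 9 intervals cover, 77.2% were after the gene, 18.4% in it and 4.3% before it. The shortest interval in the whole list was 255 bp, longer than any of these genes. Every interval therefore had to hold bases outside its gene, and a low share in the gene is not read as a lack of signal there. No interval reached more than 59 bp upstream of a start, and 5 of the 9 held no base upstream at all.

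**Figure D1:**
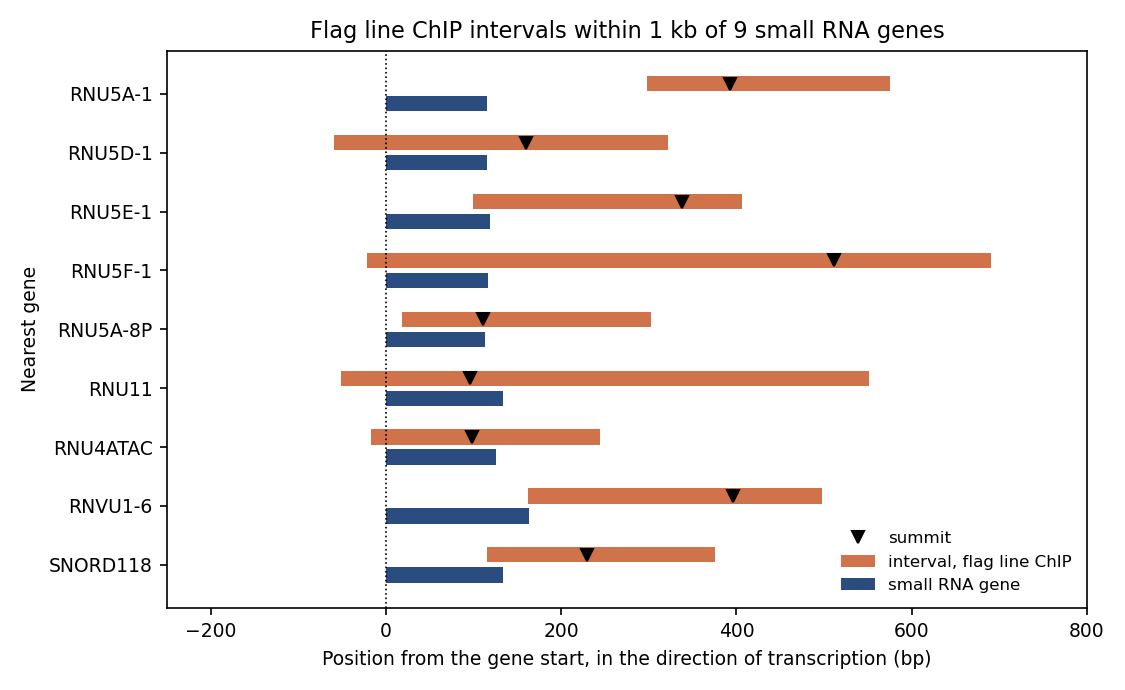
Position of the flag line ChIP intervals (orange bars), their summits (black triangles) and the small RNA genes (blue bars), in bp from the gene start in the direction of transcription, for the 9 intervals within 1 kb of a gene. Every orange bar extends to the right of its blue bar, and none starts more than 59 bp left of the gene start.

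The deposited annotation calls 7 of the 10 intervals transcription termination sites, 2 promoters and 1 intergenic, against 8.70% termination sites in the whole list. The genes are only 114 to 164 bp long, so an interval just past the start is already at the gene end. The label therefore largely restates the positions above. The transcript named in the annotation was the small RNA itself in 6 of the 7 termination sites, and another one at SNORD118. Both intervals called promoters, at RNU4ATAC and RNVU1-6, carry that name through a transcript other than the small RNA. Within 1 kb of the start of another gene the same list held 23 intervals, 14 centred past the start and 9 before it. Of these 23, 3 were called termination sites. Many of the 23 lay at pseudogene copies of mitochondrial genes, such as MTCO3P12 and MTND2P28, so they do not stand for gene starts in general. The rule set no distance and no side of the gene start. The nearest gene name itself comes from the position of the interval, and the genes were chosen with earlier results known. The positions are therefore a description. Whether the small RNA intervals differ in this from the others was not tested.

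**Figure D2:**
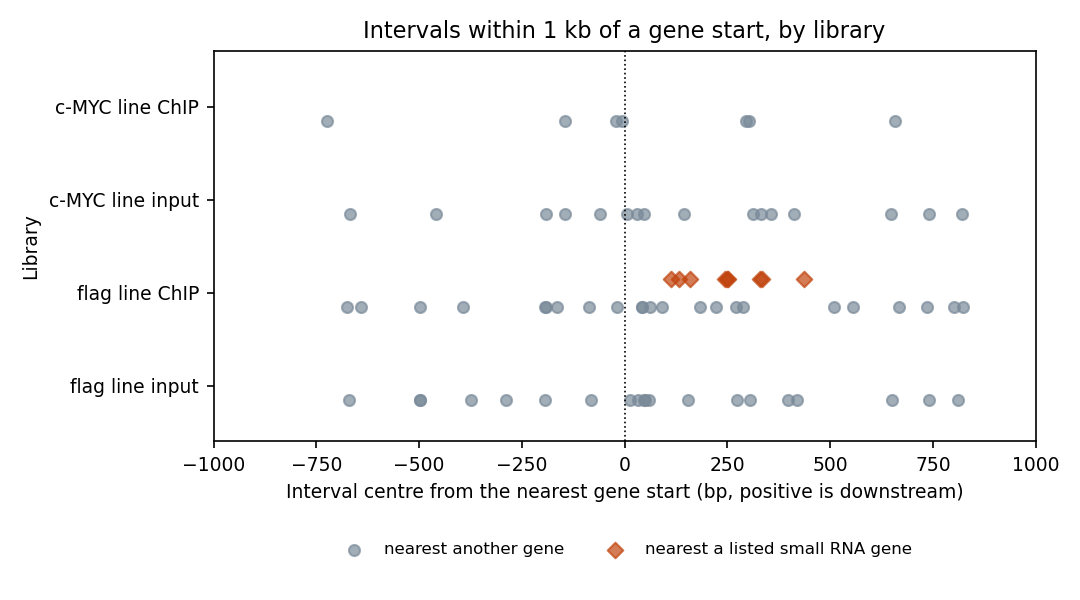
Distance from the centre of each interval to the nearest gene start in bp (positive is downstream), for all intervals within 1 kb of a gene start in each of the 4 libraries. The 9 intervals nearest a listed small RNA gene (orange diamonds) sit only in the flag line ChIP row, between 113 and 436 bp. Intervals nearest other genes (grey), many of them pseudogene copies of mitochondrial genes, lie on both sides of 0 in every library.

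Among the 4 U5 genes, RNU5D-1 had the highest pileup, fold and -log10 q. It is on the minus strand of chromosome 1, from 44731055 to 44731170 in GRCh38 (from 44731069 in RefSeq). Its interval ran from 44730848 to 44731229 with a pileup of 14, the deposited height of stacked reads at the summit. The fold, the peak caller's ratio over a background left undefined in the headers, was 7.93. The -log10 q, from the caller's p adjusted for multiple testing, was 8.03. The interval covered the whole gene and 207 bp past its end, with the summit 45 bp after the last base.

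RNU5F-1 lies 9.17 kb from RNU5D-1 on the same strand, from 44721786 to 44721902, inside the RefSeq gene ARMH1. Its interval, from 44721211 to 44721924, was the longest of the 10 at 714 bp, against a median of 441 bp in the list. It covered the gene and went on for 575 bp past its end, where the summit lay 395 bp after the last base. The pileup was 12, the fold 6.60 and the -log10 q 5.37. No other interval of the list lay between those of RNU5F-1 and RNU5D-1.

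RNU5E-1 is on the plus strand of chromosome 1, from 11908152 to 11908271. Its interval, from 11908251 to 11908558, held only the last 21 bases of the gene, and 93.2% of it was downstream. The pileup was 11, and the fold of 5.66 was the lowest of the 10, with a -log10 q of 3.67. The U5 pseudogene RNU5E-4P begins 1.54 kb past the gene, and the interval ended before it.

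RNU5A-1 is on the plus strand of chromosome 15, from 65296051 to 65296166, and had the lowest pileup and -log10 q of the 10. Its interval, from 65296349 to 65296626, held no base of the gene and began 183 bp after its last base. The pileup of 8 equalled the lowest in the list, the fold was 5.77 and the -log10 q was 3.24, which ranked 160 of 161. RNU5B-1, the U5 gene 8.51 kb further on, had no interval within 1 kb in any of the 4 lists.

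RNU5A-8P, which RefSeq classes as a pseudogene and the deposited annotation as a small nuclear RNA, lies on the minus strand of chromosome 1 from 210374154 to 210374267, inside the gene HHAT. Its interval, from 210373965 to 210374249, had a pileup of 15, a fold of 7.19 and a -log10 q of 7.26. It covered 84.2% of the pseudogene and 189 bp past its end, with the summit 2 bp before the last base. The pseudogene thus had a higher pileup than each of the 4 U5 genes, whose pileups were 8, 11, 12 and 14. In fold and -log10 q it was below RNU5D-1, at 7.93 and 8.03, and above the other U5 genes.

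Of the 34 U5 loci in RefSeq, 5 had an interval within 1 kb in the flag line ChIP list and 0 in each of the other 3 lists. They were 4 of the 5 U5 genes and 1 of the 29 pseudogenes. All 5 had been chosen from this same list, so the split is a description and nothing is read from it. Of RefSeq genes other than the members, 0.231% had an interval within 1 kb in any of the 4 lists. Where U5 copies share sequence, reads can be placed at more than one of them. How alike the copies are was not examined. The sources used here do not say how the authors treated reads with several matches. The intervals covered all of RNU5D-1 and RNU5F-1, 84.2% of RNU5A-8P, 17.5% of RNU5E-1 and none of RNU5A-1. The part of such reads in these values was not tested.

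Of the 4 small nuclear RNA genes particular to the minor spliceosome, RNU11 and RNU4ATAC had intervals. RNU12 and RNU6ATAC had none within 1 kb in any list. RNU11 and RNU4ATAC had been chosen from the flag line ChIP list, so this split is a description and nothing is read from it. For RefSeq genes other than the members, the share with an interval within 1 kb in any list was 0.231%. RNU11 is on the plus strand of chromosome 1, from 28648600 to 28648733, and lies within the RefSeq lncRNA gene TAF12-DT. Its first interval, from 28648549 to 28649151, covered the whole gene with 51 bp before and 418 bp after it. The summit was inside RNU11, 96 bp after its start. The protein-coding RefSeq gene TAF12 had its nearest edge 280 bp from this interval. The pileup was 12, the fold 7.16 and the -log10 q 6.19.

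The second interval assigned to RNU11, from 28654443 to 28654712, began 5710 bp after the end of the gene and was called intergenic. It had a pileup of 15, a fold of 9.93 and a -log10 q of 11.6, the highest fold and q of the 10 and a rank of 88 by q in the list. It lay outside every RefSeq gene, and no interval was listed in the 5291 bp between it and the first. It belongs to the set through the nearest gene name alone, and it is not counted in the position values for the 9 intervals above.

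RNU4ATAC is on the plus strand of chromosome 2, from 121530881 to 121531007, inside CLASP1 and its antisense lncRNA gene CLASP1-AS1. Its interval, from 121530864 to 121531125, had the largest share of its bases in the gene. It began 17 bp before the gene and ended 118 bp after it, so 48.5% of its bases were in the gene, and the summit was 98 bp after the start. The pileup was 13, the fold 6.09 and the -log10 q 4.91. The deposited annotation names the promoter of another transcript here, so this position cannot be assigned to RNU4ATAC alone.

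RNVU1-6 is on the minus strand of chromosome 1, from 146052081 to 146052244. Its interval, from 146051746 to 146052082, shared 2 bases with the gene and lay otherwise downstream, with the summit 233 bp past the last base. The pileup was 9, the fold 6.62 and the -log10 q 4.73. Here too the deposited annotation names the promoter of another transcript, so the position cannot be assigned to RNVU1-6 alone. RefSeq holds 144 U1 and variant U1 loci, 123 of them pseudogenes. Of these, RNVU1-6 alone had an interval within 1 kb in any of the 4 lists. The share was 0.231% for RefSeq genes other than the members. RNVU1-6 had been chosen from the flag line ChIP list, so this count is a description and nothing is read from it.

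SNORD118 is on the minus strand of chromosome 17, from 8173454 to 8173587, inside the gene TMEM107, which shares its direction. Its interval, from 8173212 to 8173472, held the last 19 bases of the gene and 242 bp past it, with the summit 96 bp after the last base. The pileup was 12, the fold 6.96 and the -log10 q 5.89. The deposited annotation names the end of another transcript there, so this position cannot be assigned to the small RNA alone.

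By q, all 10 intervals were in the lower part of their own list, and by fold 9 of the 10 were below its median. Pileups ran from 8 to 15 with a median of 12, where the median of all 161 was 17. Folds ran from 5.66 to 9.93 with a median of 6.79, against 9.33 in the whole list, whose lowest fold was 2.53. The second RNU11 interval, with a fold of 9.93, ranked 66 of 161 by fold. Ranks by q ran from 88 to 160. The other 56 intervals of the list with a pileup of 8 to 15 had a median fold of 8.46 and a range of 4.97 to 10.5. Of these 56, 38 (67.9%) were also absent from the flag line input list, so absence from that list was common at such pileups. Their median length was 258.5 bp, against 296.5 bp for the 10.

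**Figure D3:**
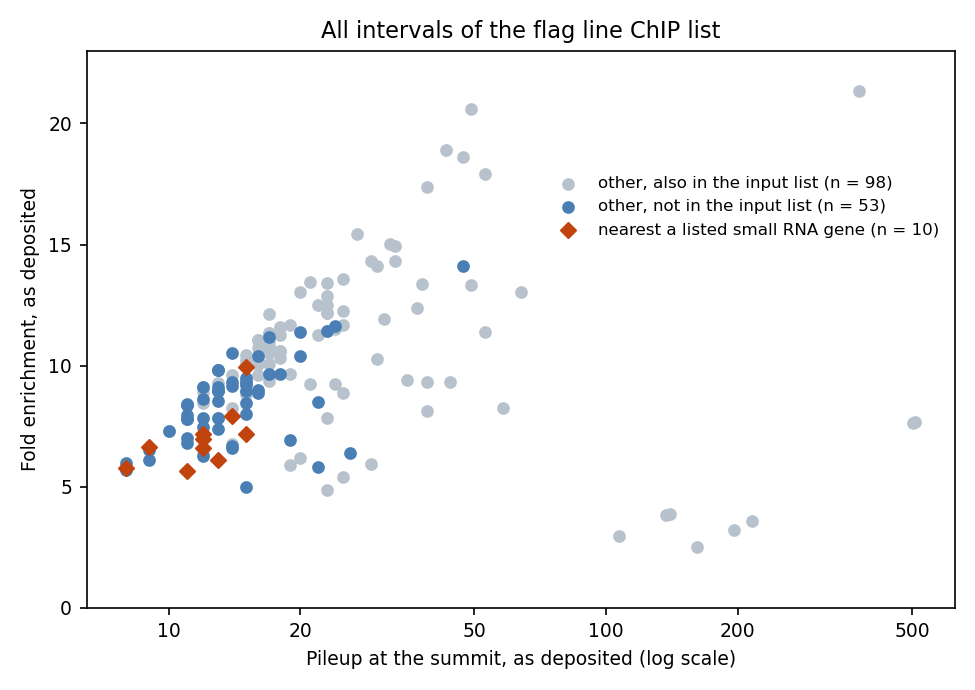
Deposited fold against deposited pileup at the summit (log scale) for all 161 intervals of the flag line ChIP list. The 10 small RNA intervals (orange diamonds) sit at pileups of 8 to 15, at the low end of the pileups, and at folds of 5.66 to 9.93. Of the 56 other intervals at these pileups, 38 were absent from the input list (blue) and 18 were also in it (grey). Grey points hold the highest values and also the lowest folds.

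In the flag line, the smallest listed pileup was 8 for ChIP and 11 for input. In the c-MYC line it was 10 for ChIP and 13 for input. Of the 10 small RNA intervals, 8 reached the lowest pileup of the flag line input, 8 that of the c-MYC line ChIP list and 4 that of the c-MYC line input. Pileups are not scaled between libraries and the number of reads in each is unknown. The files hold only called intervals, so the pileup at these genes in the other 3 libraries is not known, and absence from a list does not show that there was no signal.

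Few genes of any kind had an interval: of 59670 RefSeq genes other than the 9, 138 (0.231%) had one within 1 kb in any of the 4 lists. At that share, a count of 0 in a short list is not a result about the list, and small RNA genes with an interval had already been taken into the 9. A further list, mostly of U small nuclear RNA genes but also with RN7SK, held 24 symbols. In RefSeq 23 were found, all but RNU2-2P, which the list gives beside RNU2-2. Among the 23 were RNU1-1, RNU2-1, RNU4-2, RNU6-1, RNU12 and RNU7-1. Of these 23, 0 had an interval within 1 kb in any of the 4 lists. The same held for 20 other small RNA genes with promoters of their own, such as the U3 gene SNORD3A, RMRP and RPPH1. It held too for 34 protein genes of small nuclear RNA transcription and of the U5 and minor spliceosome particles, such as SNAPC4 and POU2F1, which encode factors of these promoters, INTS11, the nuclease of Integrator, and PRPF8, the central U5 protein.

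Apart from the 10, the flag line ChIP list held 6 intervals whose nearest gene was a small nuclear or nucleolar RNA, and none was close to it. Their distances ran from 21024 bp at RNU4-64P, where the pileup was 11 and the fold 8.37, to 373190 bp at RNU6-488P. SNORA51 was 23146 bp away, a U7 gene 59063 bp, RNU6-699P 88341 bp and RNU6-573P 183233 bp. Of these 6, RNU4-64P and SNORA51 were absent from the flag line input and the other 4 were listed there. In the c-MYC line input, 1 interval was 6774 bp from RNU6-465P, and in the flag line input 1 was 15581 bp from RNU7-34P, which were the smallest such distances in those lists.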

How the data were processed

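Per the submitters' processing notes, CASAVA 1.4, cutadapt 1.19, Bowtie2 2.3.0 and MACS2 2.1.1 were used, with the build GRCh38. Not given in the sources used here are the threshold, any control library in the calling and the treatment of reads with several matches. Per the file headers, each of the 4 deposited lists gives for 1 library the pileup signal at the summit, the -log10 of p and q, the fold (a ratio) and a peak score. The deposited intervals and gene ends were used as 1-based. The names of the flag line intervals carry "nc" where the labels say flag.

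Members and gene lists were chosen with earlier results of these data known. The named genes are the 9 members, small nuclear and nucleolar RNA genes nearest to an interval, and examples from the fixed lists. Intervals were compared with Python 3.11.15 and pandas 2.3.3 with 1 shared bp as the smallest overlap, and shares given exact intervals with SciPy 1.17.1. The interval arithmetic was tested on simulated data. The RefSeq gene table (GRCh38.p14), which holds all 9 members, gave further gene positions, and the deposited annotation gave the strand. Alternatives were stricter fold, q and pileup minimums, other windows and overlaps, RefSeq gene starts and interval centres. The planned motif counts were not run, and no sequence was used here. Sequencing depth is unknown, so no floor is given.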

Additional observations from a re-analysis of the deposited data

How the results depend on the processing

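The number of small RNA intervals in the flag line ChIP list was 10 with a fold of at least 5 or a -log10 q of at least 2. Neither minimum could remove any of them. Their lowest fold was 5.655, and the lowest -log10 q in that list was 3.1. It fell to 0 with a pileup of at least 20, since the highest pileup was 15. With minimums added after the data were seen, 6 had a -log10 q of at least 5 and 8 a pileup of at least 11. Counting any interval within 1 kb of the genes in RefSeq, also added later, gave 9. The 9 genes with an interval within 1 kb were 9 with windows of 500 bp or 5 kb and with RefSeq gene starts. They were also 9 with a fold of at least 5. The wider window and the fold minimum could not have changed this count. The counts of 0 in the other 3 lists, and of 0 shared intervals, were 0 under every alternative run for them. These included a reciprocal overlap of 50% and a distance of 1 kb. That outcome was fixed, because stricter minimums and overlaps cannot raise a count of 0. The nearest interval of another list to any of the 10 was 2.80 Mb away, in the c-MYC line input, beyond every window used. The median position of the 10 summits, 283.5 bp after the gene start, became 251.25 bp with interval centres, and 0 of 10 were before the start by either measure. No paired analysis was possible because each group had 1 library. Lists of called intervals without depth cannot show whether weak signal at these genes was present in the other libraries.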
